A study of Mus musculus with 17 samples.

Results

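Replication-dependent histone genes were examined in single 2-cell embryos of the mouse strain 129SVE. Rows of the array table (probe sets, each summarising the probes of 1 target) were taken as members when their gene, or an older name of the same gene ID, carried a name beginning Hist1h, Hist2h, Hist3h or Hist4h. This rule gave 58 of the 28815 rows. Of these, 31 rows named exactly 1 gene, with 5 genes of the linker histone H1, 5 of H2A, 11 of H2B, 3 of H3 and 7 of H4. The other 27 rows named several genes, mostly copies of 1 histone type with closely similar coding sequences, and they are described apart as shared rows: 3 for H2A, 7 for H2B, 10 for H3, 6 for H4 and 1 listed for H1f4 and H2bc6 together. Of 70 such genes in the mouse gene table, 69 stood on some member row, H2ac14 stood on none, and 39 had no row of their own.

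The control group held 7 embryos of 3 males injected daily with saline for 6 weeks, of which A gave 1 embryo and B and D gave 3 each. The PJ34 group held 10 embryos of 3 males injected in the same way with PJ34, an inhibitor of the enzymes PARP1 and PARP2, namely MTM11 with 4 embryos, MTM13 with 4 and MTM14 with 2. All males were wild type and were mated naturally with untreated wild-type females, and no embryo was itself treated. The labels name the control males both saline treated and untreated, and the saline of the treatment protocol is followed here. No source used here gives the age of the animals. Embryos of 1 male share their father, so that the spread between embryos and the spread between males are only partly separable with 3 males a group. The study asked whether altered histone retention in sperm is followed by altered transcript levels in the embryo.

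The values were log2 intensities after RMA (robust multichip average), in which 1 unit is a doubling of the signal. Array medians lay between 6.12 and 6.23, pair correlations across rows between 0.94 and 0.963, and no pair of arrays was identical. The stage named by the labels was checked with marker lists. Of 16 rows of 2-cell markers the median row stood at the 88.8 percentile of all rows, and 12 rows of oocyte and maternal markers stood at 91.2, whereas 11 rows of cumulus cell markers stood at 28.1. The mean over the cumulus markers ran from 5.29 to 5.47 in control embryos and from 5.20 to 5.50 in PJ34 embryos, and that over 9 rows of oviduct and blood markers from 5.68 to 6.003 and from 5.74 to 6.12.

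Replication-dependent histones are the bulk histones that package newly made DNA. Their genes lie in clusters, are transcribed in S phase, and give mRNAs that end in a stem-loop in place of a poly(A) tail. The stem-loop is bound by SLBP, while NPAT drives transcription at the histone locus body and the U7 particle directs the cut that forms the end. H2A, H2B, H3 and H4 form the nucleosome core, and H1 binds the linker. In the early mouse embryo, stored maternal histones and their mRNAs are joined by new transcripts as the embryonic genome becomes active. The members also include genes known from the male germ line: H2bc1 encodes the testis H2B (TH2B), H2ac1 the testis H2A (TH2A) and H1f6 the testis linker histone H1t. How far the amplification of the RNA captured transcripts without a poly(A) tail was not tested.

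Promoters of the members the results turn on are shown first, as their letters differ between the types. RefSeq windows (assembly GRCm38.p6) were matched for 62 of the 70 genes, and the 250 bases before each start were searched on both strands for 4 motifs. The letters TATAAA served for the TATA box of core promoters and CCAAT for the element bound by the factor NF-Y. The octamer known from H2B promoters, bound by POU factors, was searched as ATTTGCAT, and the element known from promoters of H1 genes as AAACACA. Of the 63 histone windows, 52 (82.5%) held the CCAAT letters, as did 33.8% of all 32851 windows. They were in 17 of 17 windows of H2B but in 3 of 12 of H4. TATAAA was held by 46% of histone windows and 12.4% of all. ATTTGCAT was held by 7 of 18 H2A windows and 7 of 17 H2B windows, by 0 of the 6 H1, 10 H3 and 12 H4 windows, and by 1.6% of all windows. AAACACA was held by 5 of 6 H1 windows and by 6.25% of all. Windows of H2A and H2B genes that lie head to head share bases and are not separate examples, and a match of letters is a description only.

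The 150 bases before the start are printed 5′ to 3′ in the direction of transcription, with capitals marking matches to any of these 4 motifs on either strand, which do not overlap one another here. H2bc14 (chr13:21721894-21722043 on the plus strand) and H2aw (chr11:58954535-58954684 on the plus strand) are shown because theirs were the rows of a single gene with an unadjusted p below 0.05 between the groups. H2bc1 (chr13:23934157-23934306 on the minus strand) and H2ac1 (chr13:23934287-23934436 on the plus strand) are shown as the testis pair, which is transcribed in opposite directions from overlapping windows. H4c4 (chr13:23581418-23581567 on the plus strand) is shown as 1 of the 3 H4 windows with CCAAT letters. The first position of each motif is given as its distance from the start of transcription.
H2bc14: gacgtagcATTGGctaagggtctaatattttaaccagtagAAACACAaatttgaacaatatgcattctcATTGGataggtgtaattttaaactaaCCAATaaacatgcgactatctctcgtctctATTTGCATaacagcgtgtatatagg
H2aw: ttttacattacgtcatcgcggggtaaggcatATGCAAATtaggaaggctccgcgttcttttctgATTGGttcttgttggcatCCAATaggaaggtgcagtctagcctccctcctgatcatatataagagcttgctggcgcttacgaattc
H2bc1: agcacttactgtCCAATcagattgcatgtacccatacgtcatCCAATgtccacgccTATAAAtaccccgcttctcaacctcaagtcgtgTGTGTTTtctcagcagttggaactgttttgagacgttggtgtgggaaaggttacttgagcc
H2ac1: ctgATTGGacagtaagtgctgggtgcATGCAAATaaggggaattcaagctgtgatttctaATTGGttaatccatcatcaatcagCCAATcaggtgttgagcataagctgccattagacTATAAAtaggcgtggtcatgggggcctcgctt
H4c4: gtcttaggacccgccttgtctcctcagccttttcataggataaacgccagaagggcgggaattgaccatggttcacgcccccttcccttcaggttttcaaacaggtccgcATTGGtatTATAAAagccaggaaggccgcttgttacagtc
The H2bc14 window held CCAAT letters at -142, -81 and -55, AAACACA at -110 and the octamer at -25. The octamer of H2aw lay at -119, on the opposite strand. TATAAA stood at -94 in H2bc1, at -32 in H2ac1 and at -32 in H4c4.

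The first comparison was that of PJ34 embryos with control embryos as groups. Each array measured a whole embryo, so that its cells cannot be told apart, nor stored maternal from newly made transcripts. Mean H2B values were higher in PJ34 embryos in all 7 shared rows and in H2bc14, H2aw of the H2A type was higher by a similar amount, H3 and H4 shared rows differed less, and H1 rows fell on both sides of 0. None of these differences passed the threshold over all 23385 rows with a gene name. By limma, 0 of 58 member rows had an adjusted p below 0.1 (lowest 0.837), as had 0% of all rows tested. The unblocked analysis of variance of the methods also gave 0, and with the sire as a random block the lowest adjusted p (limma) was 0.639. The estimated sire correlation was -0.035, so that the block made no allowance for likeness among embryos of 1 male. At an unadjusted p below 0.05, a rule met by 1.93% of all rows in the higher direction and by 3.91% in the lower, 11 member rows were higher in PJ34 embryos and 0 were lower. These 11 rows comprised 7 shared rows of H2B, H2bc14, H2aw, a row shared by H2aw and Trim17, and 1 of 10 shared rows of H3. Rows listing the same genes are not independent measurements, so that the 11 rows stand for fewer events. Of the 2 rows with 1 symbol among them, neither kept an unadjusted p below 0.05 when the embryos of sire B were left out. With the mean of each male as 1 value, 3 against 3, 10 of the 11 rows no longer had an unadjusted p below 0.05 (limma), among them all 7 shared H2B rows, H2bc14 and H2aw. That fit gave 13 member rows with higher values at this p, beside 2.02% of all rows, namely the 10 shared rows of H3, H2bc1, H4c3 and H1f1, and 0 with an adjusted p below 0.1.

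The direction was the same in many rows. The difference was above 0 in 45 of 58 member rows (77.6%), as against 43.7% of all rows, and the median log2 difference was 0.20 over members and -0.02 over all rows. It lay mainly in the shared rows, of which 25 of 27 were above 0 with a median of 0.30. Many of these list the same genes and repeat 1 signal, so that the 45 rows and the median of 0.20 do not rest on separate measurements. Of the 31 rows with 1 symbol, 20 were above 0, with a median of 0.05. No member row separated the groups completely, a pattern found in 0.0128% of all rows. For rows with 1 symbol, the median difference was -0.06 for H1, -0.00297 for H2A, 0.05 for H2B, 0.03 for H3 and 0.21 for H4. The H4 median was 0.06 without MTM13-1, 0.03 without sire B and 0.000265 without sire MTM13. For shared rows it was 0.05 for H2A, 0.88 for H2B, 0.33 for H3 and 0.16 for H4. The 95% interval lay within 0.5 log2 units of 0 in 16 of the 31 rows with 1 symbol, and it reached past 1 unit in 6 of the 31. Only 17 of the 31 had a mean of at least 6. Narrow intervals included rows of low signal, such as H2ac8 and H3c7 with control means of 3.51 and 3.74. In such rows a narrow interval says little about the transcript.

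**Figure D1:**
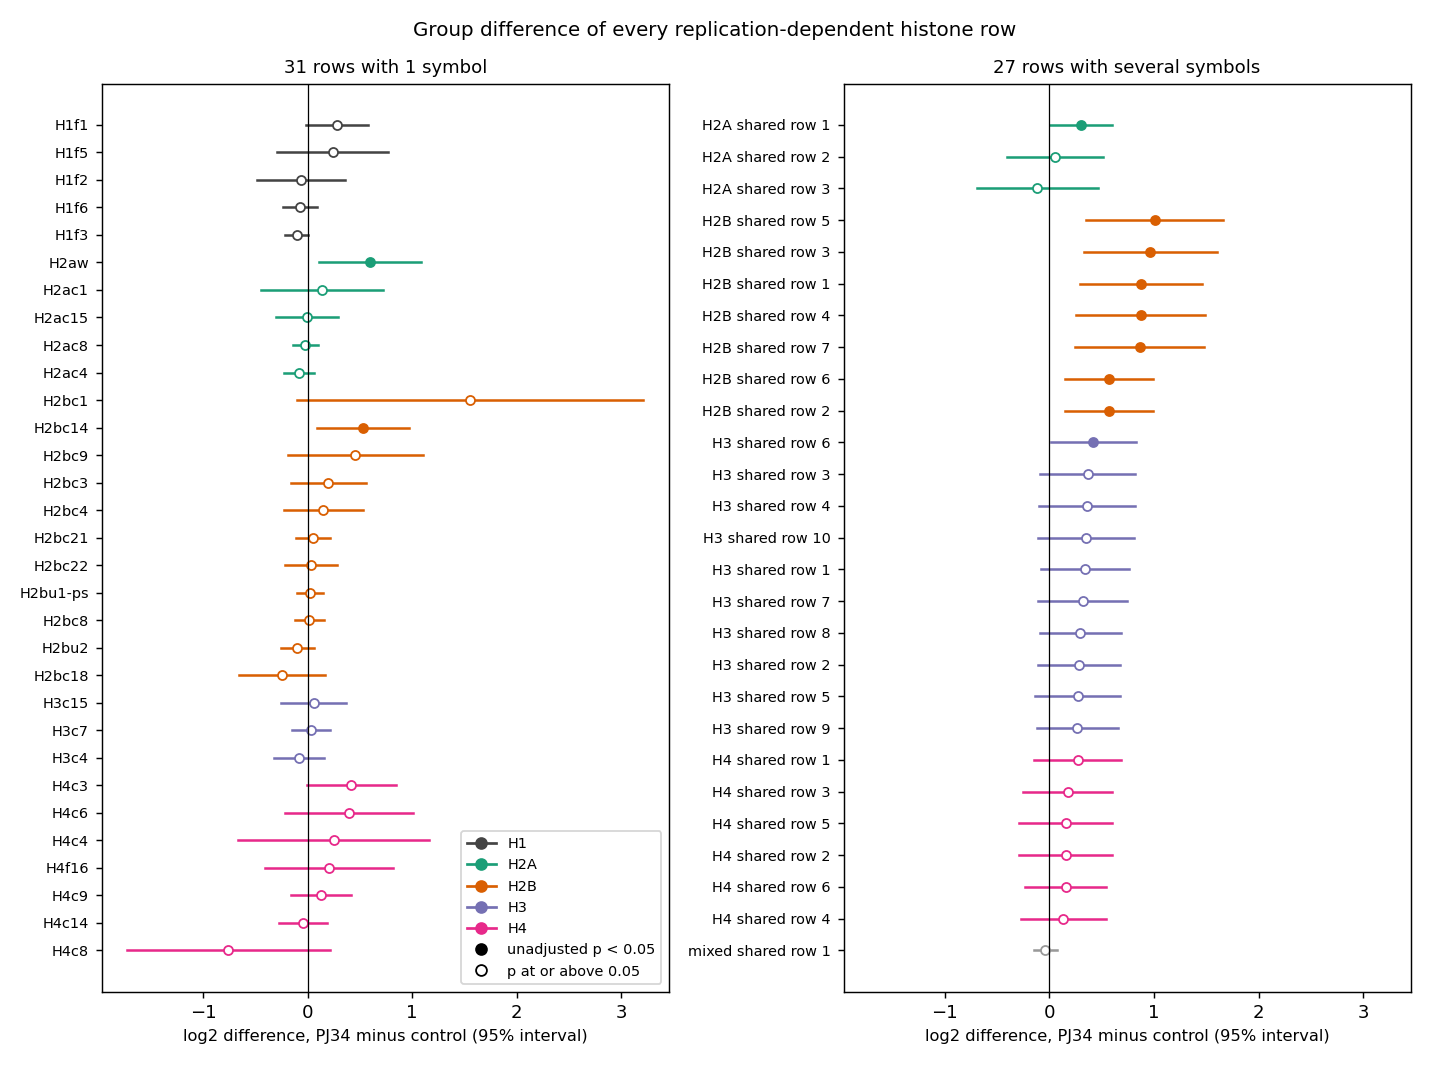
Log2 difference between PJ34 and control embryos (points, horizontal axis) with its 95% interval (lines) for the 31 rows with 1 gene symbol (left) and the 27 shared rows (right), coloured by histone type. Filled points have an unadjusted p below 0.05; all 7 shared rows of H2B are filled, and H2bc1 has the widest interval, from -0.10 to 3.21.

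H2B was the type with the largest differences. The 7 shared rows each listed 14 or 15 H2B genes, with or without H2bc1, and 2 of them, shared rows 2 and 6, held identical values in every embryo. For shared row 5, which had the smallest p, control embryos ran from 7.24 to 9.64 with a median of 8.64, and PJ34 embryos from 8.92 to 9.93. Its mean was 9.39 ± 0.38 (SD, n = 10) against 8.39 ± 0.94 (n = 7), a log2 difference of 1.01 (95% interval 0.35 to 1.66, limma adjusted p = 0.837). Taking the median of the 7 rows in each embryo, control values were 9.51 in A-2, 7.92 in B-1, 7.40 in B-2, 8.64 in B-3, 7.38 in D-1, 8.98 in D-2 and 8.87 in D-3. The PJ34 values were 9.56, 9.95, 9.51 and 9.37 in MTM11-1 to MTM11-4, 8.92, 9.002, 9.42 and 8.84 in MTM13-1 to MTM13-4, and 8.89 and 9.17 in MTM14-1 and MTM14-2. Control embryos B-1, B-2 and D-1 lay below every PJ34 embryo in all 7 rows, whereas A-2 lay among the highest PJ34 embryos, so that the groups overlapped. All 10 PJ34 embryos lay above the control mean in each of the 7 rows, which repeat nearly the same signal. That mean was lowered by B-1, B-2 and D-1, and in shared row 5 the other controls, A-2, B-3, D-2 and D-3, lay above it too.

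The spread differed between the groups in these rows, with a median SD of 0.84 in control embryos and 0.37 in PJ34 embryos. The array medians of the 3 low control embryos were 6.19, 6.22 and 6.16. Quantile normalization brings array medians close together, so that they are no check of these arrays. Over sires, the mean of the embryo medians was 9.51 for A, 7.99 for B and 8.41 for D, and 9.60 for MTM11, 9.04 for MTM13 and 9.03 for MTM14. The value of A rests on 1 embryo and was higher than those of MTM13 and MTM14. On means of 3 sires against 3, the differences of the 7 rows were 0.35 to 0.68, and without sire B they were 0.35 to 0.65, down from 0.57 to 1.01 with all embryos. Without sire MTM11 they were 0.40 to 0.75. Leaving out sire A instead gave 0.71 to 1.21.

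**Figure D2:**
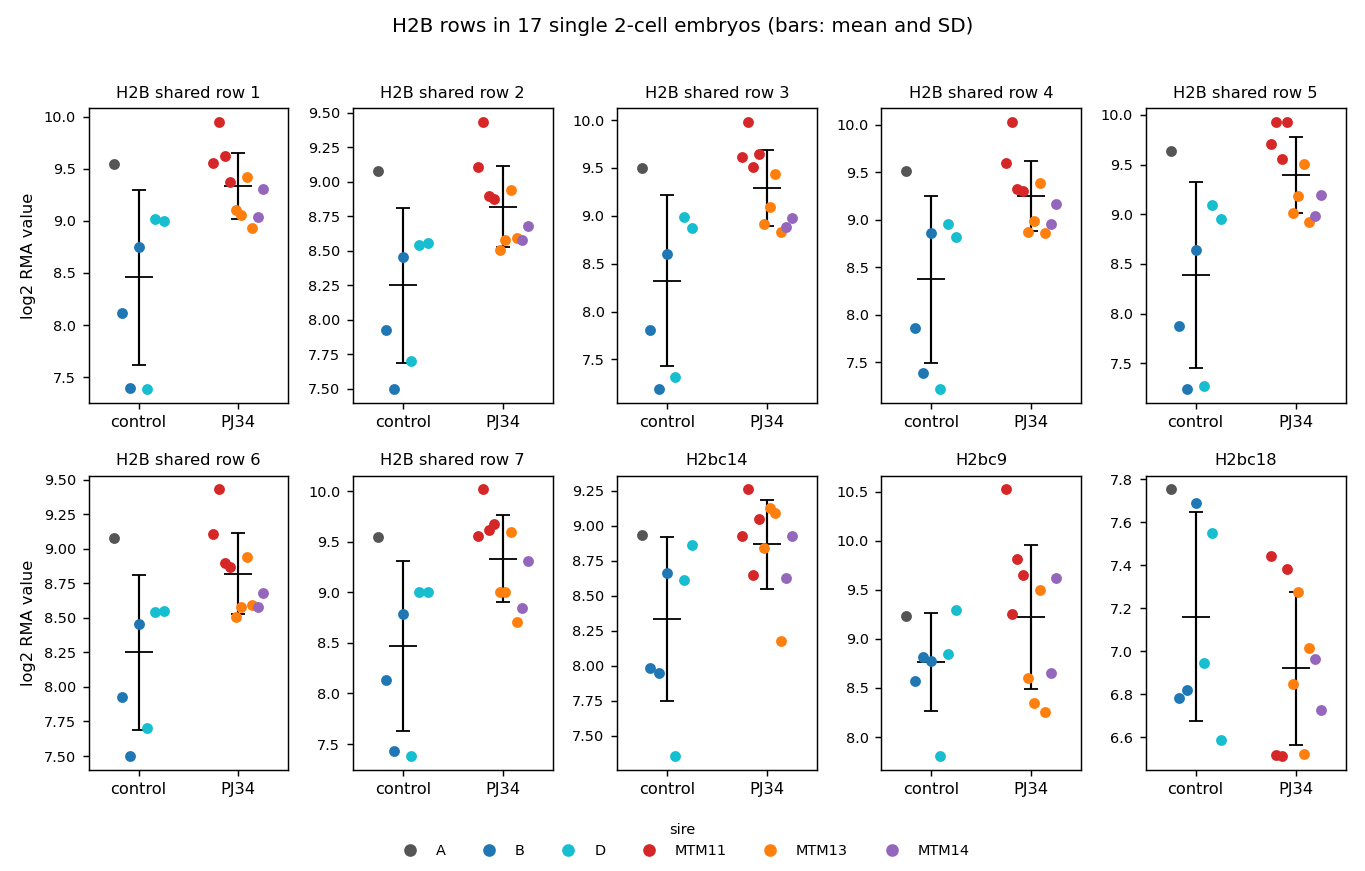
Log2 RMA values (vertical axis, scaled per panel) of the 7 shared H2B rows and of H2bc14, H2bc9 and H2bc18 in 7 control and 10 PJ34 embryos, each point 1 embryo coloured by its sire. Bars give mean and SD; in the shared rows 3 control embryos, B-1, B-2 and D-1, stand below all PJ34 embryos.

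Among the 11 rows of single H2B genes, H2bc14 was the closest to the shared rows, with Pearson correlations from 0.78 to 0.862. These were taken across the 17 embryos after the mean of each group was subtracted, as were all other correlations between rows unless called raw. H2bc14 ran from 7.35 to 8.93 in control embryos with a median of 8.61, and from 8.17 to 9.26 in PJ34 embryos with a median of 8.93. Its means were 8.87 ± 0.32 and 8.34 ± 0.58, a log2 difference of 0.53 (0.09 to 0.97, limma adjusted p = 0.849), and its value was lowest in D-1, B-2 and B-1, as in the shared rows. H2bc14 is itself listed on these shared rows, and how far it accounts for their signal was not tested. H2bc9 ran from 7.80 to 9.30 in controls and from 8.26 to 10.53 in PJ34 embryos, ranges that overlapped, with a difference of 0.46 (-0.19 to 1.10) that was 0.30 without D-1 and 0.07 without sire MTM11. H2bc18 lay the other way, at -0.24 (-0.65 to 0.17). H2bc21, H2bc22, H2bc8, H2bu2 and the pseudogene H2bu1-ps had differences from -0.10 to 0.05 with intervals that held 0. H2bc3 and H2bc4 had differences of 0.20 and 0.15, of which the former rested on MTM11-2 and was 0.07 without that embryo.

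H2bc1, encoding TH2B, had the largest difference of all member rows and the widest spread. Control values were 7.55, 5.59, 9.37, 6.25, 5.75, 5.65 and 10.09 in A-2, B-1, B-2, B-3, D-1, D-2 and D-3. PJ34 values were 8.01, 9.81, 7.73 and 10.16 in the MTM11 embryos, 10.30, 9.88, 6.68 and 5.98 in the MTM13 embryos, and 9.26 and 9.47 in the MTM14 embryos. Both groups therefore held embryos near 6 and embryos near 10. The difference was 1.55 (-0.10 to 3.21, limma adjusted p = 0.862), and the SD within groups, 1.68, stood at the 99.3 percentile of all rows. The raw values of H2bc1 did not follow those of its neighbour H2ac1 across the 17 embryos (r = 0.171). With the group means subtracted, H2bc1 correlated with H2ac15 at 0.677, H4c6 at 0.674 and H4c14 at 0.62. These were picked from the strongest of 465 pairs and are not comparable with the raw value for H2ac1. Of 10 rows of spermatid markers, which include the testis linker histone gene H1f7, 5 had differences above 0 and 5 below, with a median of -0.02. At an unadjusted p below 0.05, Prm1 and Odf2 were higher in PJ34 embryos (differences of 0.17 and 0.34) and 0 were lower. That rule was met by 1.93% of all rows in the higher direction. By signal, Odf2 stood at the 92.9 percentile of all rows, far above the next highest of these markers, Prm2 at 67.9. Whether the Odf2 signal has to do with spermatids was not tested. The mean over these markers ran from 6.35 to 6.57 in control embryos and from 6.41 to 6.63 in PJ34 embryos. The part of these rows in the H2bc1 values was not tested.

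In the H2A type the difference lay in H2aw, a gene of the Hist3 cluster whose product is a core histone. H2aw ran from 8.19 to 9.38 with a median of 8.86 in control embryos, and from 8.51 to 10 with a median of 9.51 in PJ34 embryos. The means were 8.77 ± 0.46 (n = 7) and 9.36 ± 0.51 (n = 10), a log2 difference of 0.60 (0.11 to 1.08, limma adjusted p = 0.849), and 7 PJ34 embryos lay above the highest control. Its family differences were 0.36 in MTM11, 0.71 in MTM13 and 0.84 in MTM14, and without sire B the difference was 0.27. The row shared by H2aw and Trim17, a ubiquitin ligase, followed H2aw with a correlation of 0.931 and had a difference of 0.30 (0.00343 to 0.60). The neighbouring H2B gene of the same cluster, H2bu2, did not follow H2aw in raw values (raw r = -0.229), a measure not comparable with the 0.931. H2ac4, H2ac8 and H2ac15 had differences of -0.08, -0.02 and -0.00297. The 2 rows that list many H2A genes together, with H2ax and the H3 gene H3c4 among them, had differences of 0.05 and -0.11, and they were highest in B-2 and MTM14-2.

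Among the linker histone genes, H1f1 ran from 10.4 to 11 in control embryos with a median of 10.81 and from 10.32 to 11.44 in PJ34 embryos. Its means were 11.03 ± 0.32 and 10.75 ± 0.24, a difference of 0.28 (-0.01 to 0.57, limma adjusted p = 0.851), and 9 of 10 PJ34 embryos lay above the control mean. H1f3 went the other way, with 4.76 ± 0.10 against 4.87 ± 0.10, a difference of -0.11 (-0.22 to 0.01), and 1 of 10 PJ34 embryos above the control mean. H1f5 differed by 0.24 (-0.29 to 0.77), with the highest values in B-3 at 7.96 and MTM11-1 at 8.44. H1f2 differed by -0.06, and by -0.22 without MTM13-4 and -0.01 without MTM13-3. The testis gene H1f6 differed by -0.07, with values from 5.65 to 6.1 in controls and 5.58 to 6.05 in PJ34 embryos. H1f4 had no row of its own, and its row shared with H2bc6 differed by -0.04.

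H3 was measured mainly through 10 shared rows, each of which listed the same 12 genes and which correlated with each other at a median of 0.987. Shared row 6 ran from 7.65 to 8.90 in controls with a median of 8.46, and from 8.21 to 9.26 in PJ34 embryos, with a difference of 0.42 (0.01 to 0.83, limma adjusted p = 0.849). The other 9 differed by 0.27 to 0.37, with intervals that held 0. PJ34 embryos formed no single block here, for MTM11-1, MTM13-1 and MTM13-2 lay below 8.4 in shared row 6 while MTM11-2, MTM11-3, MTM13-3, MTM13-4 and MTM14-1 lay above 9.1, and the lowest embryo was control B-1. The 3 rows of single H3 genes, H3c4, H3c7 and H3c15, differed by -0.09, 0.03 and 0.06.

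H4 shared rows 2 to 6 listed 11 genes each, and rows 2 and 5 were identical in every embryo. Shared row 4 ran from 10.48 to 11.77 in controls and from 10.58 to 11.92 in PJ34 embryos, a difference of 0.13 (-0.27 to 0.54). Among single genes, H4c3 had the smallest p, with 7.48 ± 0.37 (n = 10) against 7.06 ± 0.51 (n = 7), a difference of 0.42 (-0.01 to 0.84, limma adjusted p = 0.85). All 10 PJ34 embryos lay above the control mean of H4c3, though controls reached 8.03 in B-2. H4c4 ran from 8.59 to 11.49 in controls and from 8.90 to 11.14 in PJ34 embryos, and its difference of 0.25 was 0.04 without D-2, 0.0450 without B-2 and 0.52 without D-3. H4c8 had a difference of -0.76 (-1.72 to 0.21) that rested on control B-2 at 8.73, and it was -0.25 without that embryo. H4c6, H4f16, H4c9 and H4c14 had differences of 0.40, 0.21, 0.13 and -0.04, of which that of H4c9 was 0.02 without MTM13-1.

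**Figure D3:**
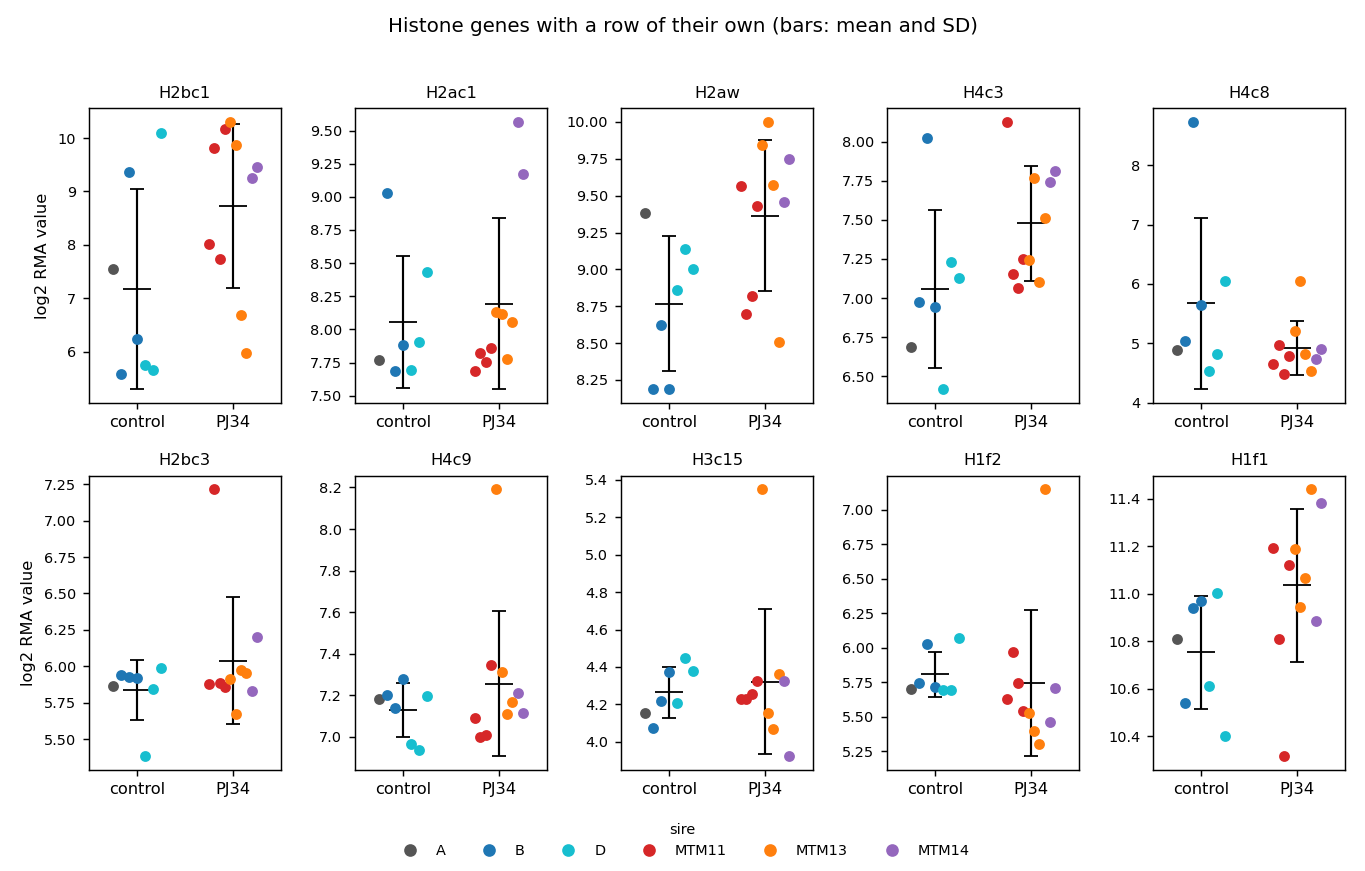
Log2 RMA values (vertical axis, scaled per panel) of 10 histone genes with a row of their own in control and PJ34 embryos, coloured by sire, with mean and SD as bars. H2bc1 spans 5.59 to 10.30, and H2bc3, H4c9, H3c15, H1f2 and H4c8 each have at least 1 embryo apart from the rest.

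The second comparison asked whether the embryos of the 3 PJ34 males differed from each other and, family by family, from the control embryos. The 3 family contrasts share the 7 control embryos. No member row passed the threshold between sires (limma F test, lowest adjusted p 0.311, 0.0128% of all rows called), and 2 of 58 had an unadjusted p below 0.05, H2ac1 and H2bc9, beside 4.99% of all rows. Against control, 0 member rows were called in MTM11 (0.00428% of all rows), 0 in MTM13 (0%) and 0 in MTM14 (0.0513%). At an unadjusted p below 0.05 there were 9 member rows in MTM11 (5.19% of all rows), 3 in MTM13 (4.77%) and 6 in MTM14 (5.76%). The 9 of MTM11 were the 7 shared H2B rows, H2bc14 and H2bc9, those of MTM13 were H2aw, H1f1 and H4 shared row 1, and those of MTM14 were H2ac1, H2aw, its shared row, H2bc4, H4c3 and H2A shared row 2. The median of the 7 shared H2B rows was 1.19 in MTM11, 0.65 in MTM13 and 0.61 in MTM14, and the F test of their difference gave an adjusted p of 0.9999 in each row. H2bc9 followed MTM11 as well, with family differences of 1.04, -0.09 and 0.37.

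H2ac1, encoding TH2A, was the member with the smallest p between sires. Its values were 9.57 in MTM14-1 and 9.17 in MTM14-2, against 7.68 to 8.13 in the other 8 PJ34 embryos. Control embryos ran from 7.69 to 9.03 with a median of 7.88, and the highest was B-1. The difference of MTM14 from control was 1.31 (limma adjusted p = 0.249), while those of MTM11 and MTM13 were -0.28 and -0.04. Without B-1 it was 1.48 with an adjusted p of 0.00887, and the test between sires then gave an adjusted p of 0.0231, so that the call turned on that 1 control embryo. Leaving out each of the other embryos gave adjusted p-values of 0.125 to 0.661 for MTM14 and 0.183 to 0.702 between sires. The family is 2 embryos of 1 male. H2bc4, an H2B gene of the same cluster, had 4.07 ± 0.43 in controls and 4.22 ± 0.34 in PJ34 embryos. It correlated with H2ac1 at 0.86, the highest of the 465 pairs of single-gene rows, with 5.02 in MTM14-1 and 4.80 in B-1. The signal of H2bc4 was low, at the 6.68 percentile of all rows.

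The third comparison set each PJ34 embryo against the 7 control embryos, as the study did, with the spread taken from the controls alone. Of 58 member rows, 4 were called in 1 PJ34 embryo each, where 5.32% of all rows were called in at least 1 PJ34 embryo. All 4 calls were higher, as were 1248 of the 1517 calls in PJ34 embryos over all rows, so that the direction is not particular to histone rows. In the same test of each control against its 6 fellows, 1 member row was called, where 3% of all rows were. The shared rows had no call. H4c9 stood at 8.19 in MTM13-1, 1.06 above the control mean (adjusted p = 0.0194), with all other embryos between 6.94 and 7.35. H3c15 was called in the same embryo, at 5.35 against 3.92 to 4.45 in all others (adjusted p = 0.0208), and these 2 genes correlated at 0.821 through it. H1f2 stood at 7.15 in MTM13-4 against 5.30 to 6.07 elsewhere (adjusted p = 0.023). H2bc3 stood at 7.22 in MTM11-2 against 5.38 to 6.198 elsewhere (adjusted p = 0.0839). The mean signal of H3c15 was low, at the 8.3 percentile of all rows, with H1f2 at 35.8, H2bc3 at 40.7 and H4c9 at 71.1. The control call was H4c8 in B-2, at 8.73, 3.57 above the mean of the other 6 (adjusted p = 0.0822), and it was lost when any of the other controls except D-3 was left out. The call of H2bc3 was lost when any control embryo except D-1 was left out, while those of H4c9, H3c15 and H1f2 held without each control in turn. Each call is 1 embryo on 1 array and has no replicate check.

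Across the 17 embryos, members did not vary together as a whole. Over the 465 pairs of single-gene rows the median Pearson correlation, with the group means subtracted, was 0.056, beside 0.0353 for pairs of rows set at a fixed distance in the table. The median was 0.0641 for 99 pairs of the same type and 0.0522 for 366 pairs of different types. H4 stood highest with 0.194 over 21 pairs, where H4c6 correlated with H4c8 at 0.797, with H4c14 at 0.686 and with H4c3 at 0.646. Shared rows of a type correlated at a median of 0.975 for H2B, 0.987 for H3 and 0.988 for H4, and within a type these rows list nearly the same genes, apart from H4 shared row 1. These correlations are descriptions across embryos that share arrays of 2 groups and 6 sires. The median SD within groups was 0.31 for single-gene rows and 0.43 for shared rows, beside 0.19 over all rows. Signals of different probe sets depend on their probes, so that the levels of different genes were not compared.

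**Figure D4:**
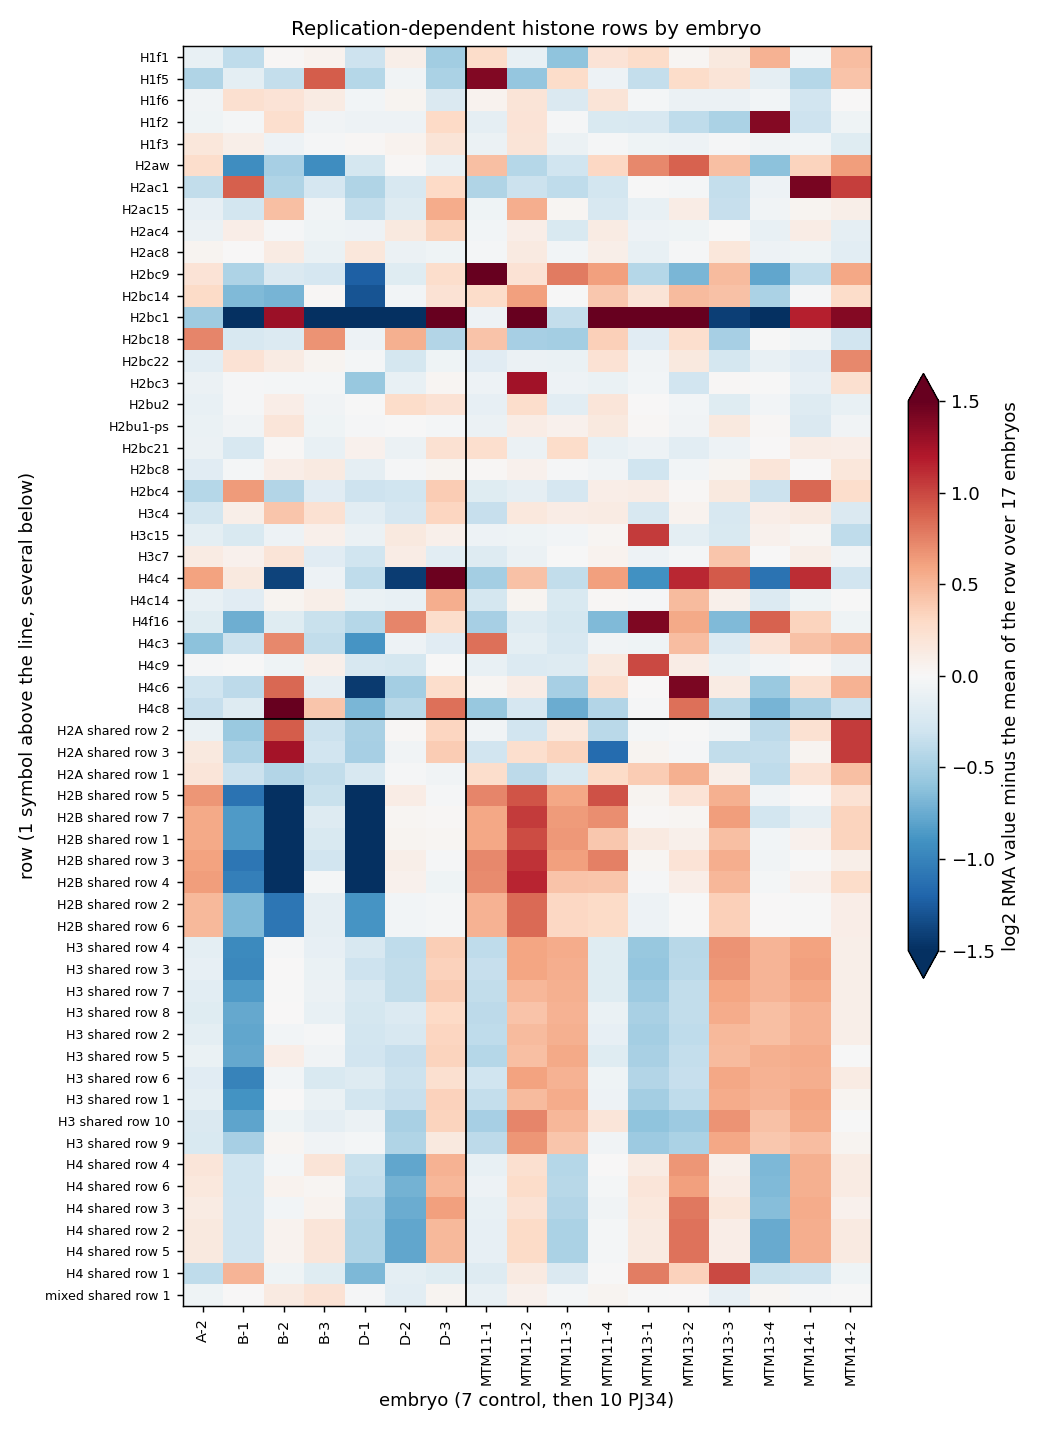
Deviation of each member row (vertical axis) from its own mean over 17 embryos, in log2 units with the colour scale capped at both ends, for 7 control and 10 PJ34 embryos (horizontal axis); rows with 1 symbol stand above the line and shared rows below, ordered by histone type. The shared H2B rows are lowest in B-1, B-2 and D-1, and the shared H3 and H4 rows show other patterns over the same embryos.

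Genes that make and use histone mRNA were counted from a list of 24 genes, 23 of which were measured on 26 rows. None was called, 1 row was higher and 2 were lower at an unadjusted p below 0.05, and the median difference was 0.02. Slbp, whose product binds the stem-loop, had 11.56 ± 0.19 in PJ34 embryos against 11.29 ± 0.24 in controls on one row (difference 0.27), and 11.24 ± 0.29 against 10.98 ± 0.34 on the other (0.26). Ncbp2, a subunit of the cap-binding complex, had 10.27 ± 0.34 against 10.63 ± 0.27, a difference of -0.36. Hinfp, a transcription factor of H4 genes, had 8.62 ± 0.78 against 9.35 ± 0.58, a difference of -0.72. The adjusted p was 0.849 for the 3 rows of lowest p and 0.878 for the fourth, the second Slbp row. Of 16 rows of S-phase genes, Rrm1 at -0.81 and Cdk2 at -0.57 were lower and a row of Pcna at 0.22 was higher at an unadjusted p below 0.05, with 0 called (limma). Of 10 rows of histone genes outside the replication-dependent set, among them H2az1, H2ax and the oocyte linker histone H1f8, 0 passed even the unadjusted rule.

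Marker rows of the stage also differed between the groups at the unadjusted rule, and none was called. Of the 16 rows of 2-cell markers (13 of 23 listed genes), 5 were lower and 0 higher in PJ34 embryos at an unadjusted p below 0.05. Over all rows, 3.91% were lower and 1.93% higher at this rule. The lower rows included Usp17lb at -1.11 and a row of Dppa4 at -0.60, whose other row differed by -0.15. Of the 16 differences, 11 were below 0 and 5 above, the highest that of Zfp352 at 0.44. The mean of the list ran from 8.99 to 9.39 in controls and from 8.66 to 9.34 in PJ34 embryos. Of the 12 rows of oocyte and maternal markers, 2 were higher at this rule, Bmp15 at 0.29 and Btg4 at 0.27, and 0 were lower. Their differences were above 0 in 5 rows and below 0 in 7, from -0.56 for H1f8 to 0.42 for Mos, with a median of -0.01. The mean of the list ran from 9.58 to 10.09 in controls and from 9.48 to 9.89 in PJ34 embryos. The part of embryo stage or of remaining maternal RNA in the H2B and H2aw differences was not tested.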

How the data were processed

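Single 2-cell embryos were profiled on Affymetrix Mouse Gene 1.0 ST arrays after amplification of their RNA with a whole-transcriptome kit, per the labels. The authors deposited log2 values made by RMA (background correction, quantile normalization and summarization of probes) in Partek. Software versions were not given in the sources used here, nor was the build behind the annotation. Values were used as deposited, and all 17 columns were mapped to embryos by their labels. Rows were named through the platform annotation, with symbols updated by gene ID from the GRCm38.p6 gene table.

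Groups were compared with limma 3.58.1 (lmFit and eBayes, two-sided, R 4.3.3) over the 23385 rows with at least 1 gene symbol, with Benjamini-Hochberg adjustment and the study's threshold of 0.1. An unadjusted p below 0.05 served as a count only. Families were contrasted in a fit with 4 groups, and single embryos against the 7 controls. P-values measure the spread between embryos, of which several share a sire. The fits were tested on simulated data first. Figures were drawn with matplotlib 3.10.9.

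Named rows were, per histone type, the row of highest mean and the 2 of smallest p among rows of 1 gene, every row with an unadjusted p below 0.05, every row called in a single embryo, a family or between sires, and H1f6, H2ac1 and H2bc1. Other rows are given by their differences. Rows named outside this rule, with their values, were chosen after these were seen. Members and gene lists were chosen with earlier results of these data known. The number of arrays limits the precision, with a median standard error of 0.2 log2 units over member rows.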

Additional observations from a re-analysis of the deposited data

Results flagged for a closer look

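Among 26 named rows, tested in 52 groups of embryos, 8 embryos lay apart from the rest of their group by more than Dixon's 95% critical value. Chance alone flags about 1 in 20 groups. The count of 8 cannot be read against that share, because H4c9, H1f2 and H2bc3 were named for a call in a single embryo. Over all 58 member rows the count was 19 of 116 groups. Shared rows that list the same genes are not independent in it, and the share over all rows was not computed. MTM13-1 stood apart in H4c9 at 8.193, with the next PJ34 embryo at 7.347, and in H3c15 at 5.352, with the next at 4.361. MTM11-2 stood apart in H2bc3 at 7.218, with the next at 6.198, and in H1f3 at 4.998, with the next at 4.788. MTM13-4 stood apart in H1f2 at 7.15 (next 5.972). H4c8 had an embryo apart in each group, control B-2 at 8.731 (next 6.052) and MTM13-2 at 6.052 (next 5.208). Control D-1 was the only embryo below its group, in H2bc3 at 5.382 (next 5.843). None of the shared rows among the named rows held such an embryo. Each is 1 embryo on 1 array, with no explanation tested.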

How the results depend on the processing

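No member row was called between the groups under any of the alternatives. The number of member rows higher at an unadjusted p below 0.05, 11, was 2 with only rows of 1 symbol, 5 with rows of the same genes averaged, 1 without sire B (H4c3), 3 without sire MTM11 (H1f1, H2aw and its shared row) and 13 over means of sires, of which 1, H3 shared row 6, was among the 11, and it ran from 8 (without B-1) to 13 (without B-2) when each embryo was left out. The number of lower rows, 0, was 1 with the plain analysis of variance, without sire B and without sire MTM11 (H1f3 each time), and 0 to 1 when each embryo was left out (H1f3 without B-2 or MTM11-2, H1f2 without MTM13-4).

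Over rows with a mean of at least 6, the median of H1 moved to 0.26 and that of H2B to 0.457, and without sire B the H1 median was 0.0357. Without sire B the difference of H3c4 became 0.057 and that of H1f6 0.0357. H3c15 turned to -0.0507 without sire MTM13 and ran from -0.0573 (without MTM13-1) to 0.102 (without MTM14-2) when each embryo was left out, and H2ac1 turned to -0.157 without sire MTM14 and ran from -0.0152 (without MTM14-1) to 0.299 (without B-1). With the same filter, single-embryo calls fell to 1 in PJ34 embryos, on 1 row, and to 0 in control embryos. Leaving out each control embryo gave 3 to 5 calls in PJ34 embryos and 0 to 2 in controls. Calls between sires and in MTM14 were 0 to 1, with 1 only without B-1. The other 804 alternatives of named rows kept the direction of their difference, and the adjusted p of the 7 shared H2B rows ran from 0.639 to 0.991 over them.

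No paired analysis was possible because the embryo numbers count embryos within a father and pair no samples across the groups. With the sire as a block, the estimated sire correlation was -0.035 and no member call changed.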
